A study of Homo sapiens with 12 samples.

Results

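The 2 control groups of the series, both of RT4 cells, were set against each other: 3 libraries that served as the vector control of an ITGB4 overexpression experiment and 3 libraries of parental cells that served as the control of a cisplatin resistance experiment. These are 6 of the 12 libraries of the series, and they were chosen as the control columns of the 2 count tables. RT4 is an established human bladder cancer line grown from a papillary urothelial tumour. The vector group carries the treatment label "transfection infection", and the design text names its plasmid Flag_EV, an empty vector with a Flag tag. Its cells grew in McCoy's 5A medium with 10% FBS. The group tags of vector libraries 2 and 3 name ITGB5 and ITGB6, while the titles of all 3 name ITGB4. The parental group is labelled WT with PBS as treatment, and its cells grew in MEM medium with 10% FBS. Neither group received cisplatin or the ITGB4 plasmid per the labels, and both share the RNA kit, an input of 1.3 µg of total RNA and a strand-marking library kit.

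The parental columns are headed NC with a number that no title holds. Their table also holds the columns of the resistant line, and from this they are inferred to be the parental libraries, where they are called parental a, b and c. Experiment, medium, plasmid delivery, counting and group change together between the baselines and cannot be told apart. No label says that replicates were separate cultures, so p-values here reflect only how much the libraries of a group varied, and that variation may be technical.

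Total counts lay between 25864229 and 33352045 in the vector libraries and between 35017033 and 38199946 in the parental libraries. Of the 61757 genes in both tables, 37 mitochondrial genes were left out, since all 37 were at 0 in the vector libraries while they held 1.64% of the parental counts. Values are CPM, counts scaled to the same library total over the remaining 61720 genes with TMM factors, which correct for differences in composition, and are given as mean ± SD with n = 3. A log2 difference is parental minus vector, and the value after ± is its approximate standard error. Spearman correlations over 17479 tested genes were 0.996 to 0.997 among vector libraries, 0.993 to 0.994 among parental libraries and 0.926 to 0.928 between the groups. The correlations are across genes, which are not independent replicates. Replicate counts differed by more than sampling noise in every pair, so each library was counted as 1 replicate.

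Both baselines had the features by which RT4 is known. CDKN2A and CDKN2B, inhibitors of cyclin-dependent kinases, and MTAP, a methionine salvage enzyme, had 0 counts in all 6 libraries. Among 25 protein-coding genes from FOCAD to ELAVL2 on chromosome 9 (20658309 to 23826337, hg38), a span chosen after its values were seen, the interferon alpha genes, DMRTA1 and ELAVL2 also had 0 counts in all 6, whereas KLHL9 stood at 41.2 ± 1.27 CPM in vector and 37.4 ± 0.636 CPM in parental cells. FGFR3 and TACC3, which are fused in RT4, were read in every library, with FGFR3 at 242, 242 and 244 CPM in the vector libraries and 78.2, 81.2 and 82.3 CPM in the parental ones. TACC3 stood at 267 ± 3.81 and 224 ± 5.67 CPM.

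The epithelial markers were all present, at summed levels of 4329 to 4485 CPM in vector and 6805 to 6886 CPM in parental libraries. Of 10 luminal urothelial markers, 8 reached 1 CPM in each group. The exceptions go against the label: KRT20, the keratin of umbrella cells, was at 0 in all 6 libraries and UPK1A, a uroplakin of the apical plaque, stood at 0.111 ± 0.0848 CPM in vector and 0.0192 ± 0.0333 CPM in parental cells. The 6 immune markers summed to 0.786 to 0.988 CPM in vector and 0.573 to 0.962 CPM in parental libraries. A wider list of 15 immune genes summed to 21.7 to 22.6 CPM in vector and 22.1 to 25.4 CPM in parental libraries, most of it ITGAM, an integrin chain of myeloid cells, at 20.8 ± 0.447 and 22.2 ± 1.72 CPM. PTPRC, the pan-leukocyte marker CD45, and TYROBP, a myeloid adaptor, had 0 counts in all 6 libraries. The 6 endothelial markers summed to at most 2.24 CPM in any library. The 6 fibroblast markers summed to 45.7 to 49.6 CPM in vector and 11.9 to 12.4 CPM in parental libraries, nearly all of it COL3A1 in the vector group and COL1A1 in the parental group.

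As background, interferons act through JAK kinases and factors that include STAT2 and IRF9, which bind the interferon-stimulated response element in promoters and switch on antiviral genes such as RSAD2, the enzyme viperin. Integrin alpha 6 and beta 4, encoded by ITGA6 and ITGB4, form the receptor of hemidesmosomes, which anchors basal epithelial cells to laminin in the basement membrane. MDM2 is the ubiquitin ligase that marks p53 for degradation and is itself a p53 target. In the urothelium, basal cells carry KRT5 and TP63, luminal cells carry uroplakins under the control of GATA3, FOXA1 and PPARG, and keratinising change brings the small proline-rich and S100 proteins.

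The baselines ranked genes alike and yet differed at most genes. Over 17085 genes with a known length, CPM per kilobase gave a Spearman correlation of 0.913 between the group means. edgeR's quasi-likelihood test called 6787 genes higher in parental cells (38.8% of genes tested) and 6916 lower (39.6%), 78.4% in all at an adjusted p under 0.05. The common biological coefficient of variation was 3.04%, so small differences passed that test, and 41.7% of genes differed by under 0.5 on the log2 scale. A stricter test, edgeR's glmTreat against a 2-fold difference, called 1440 genes higher (8.24%) and 2375 lower (13.6%), 21.8% in all. It is the test meant by "over 2-fold" from here on. Counts of list members over 2-fold are to be read beside these shares of all genes. In bulk RNA, fewer cells with a transcript and less of it per cell cannot be told apart. The median of all tested genes was -0.02 on the log2 scale. It stood at -0.22 with library size alone, -0.18 with upper quartile factors and -0.04 with RLE factors. Genes higher in parental cells made up 37.7% of those over 2-fold, against 26.5% with library size alone and 28.3% with upper quartile factors.

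**Figure D1:**
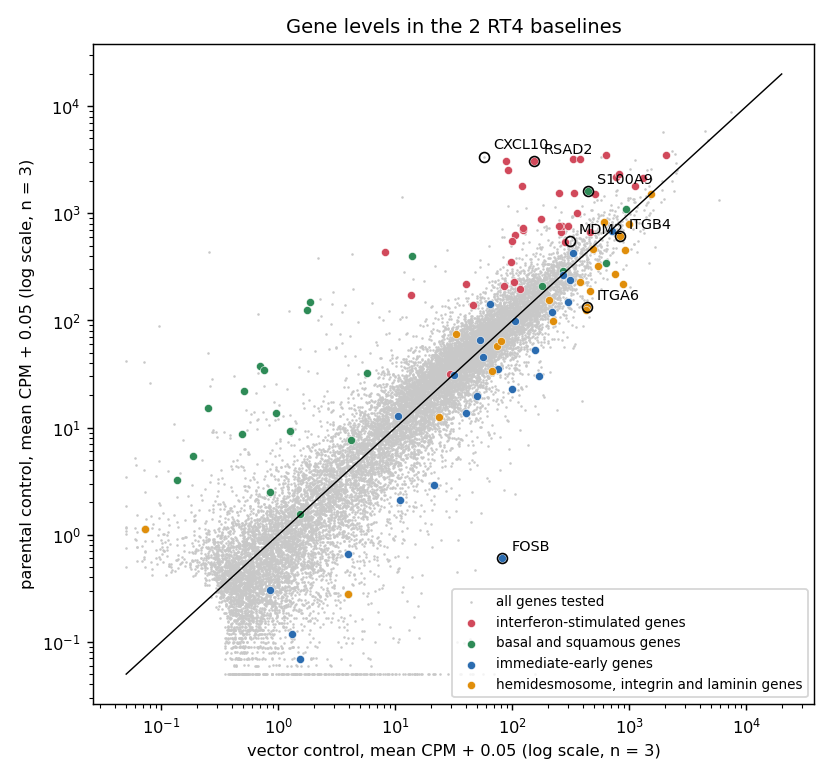
Mean CPM + 0.05 of each gene tested in vector (x axis) and parental cells (y axis), both on log scales, with 4 gene lists coloured, 7 genes ringed and the line of equal levels. Interferon-stimulated and basal or squamous genes lie mostly above the line, immediate-early and hemidesmosome genes mostly below it.

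The 4 marker genes differed between the baselines by unlike amounts. Each had an adjusted p under 0.05 by edgeR's quasi-likelihood test, as did 78.4% of all genes tested. RSAD2 (chr2:6865806-6898239, hg38) stood at 155, 156 and 151 CPM in the vector libraries and at 3039, 3060 and 3047 CPM in the parental libraries. Each parental library was far above every vector library. The difference was 4.31 ± 0.02 on the log2 scale, 19.8-fold (edgeR adjusted p = 1.2e-28). ITGA6 (chr2:172427354-172506282) stood at 432, 437 and 436 CPM in vector and 132, 135 and 134 CPM in parental libraries, which do not overlap. It was 3.25-fold lower in parental cells, at -1.70 ± 0.02 on the log2 scale (edgeR adjusted p = 2.6e-22). Its partner ITGB4 (chr17:75721328-75757818) read 815, 833 and 826 CPM in vector and 620, 615 and 617 CPM in parental libraries. The groups do not overlap for ITGB4 either, and its difference of -0.42 ± 0.02 (edgeR adjusted p = 1.8e-14) did not pass the 2-fold test. MDM2 (chr12:68808176-68850686) read 309, 298 and 317 CPM in vector and 554, 543 and 562 CPM in parental libraries. All 3 parental values were above all 3 vector values, at 0.84 ± 0.02 on the log2 scale (edgeR adjusted p = 3.3e-17), again without passing the 2-fold test.

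By rank of CPM per kilobase among 13252 protein-coding genes, RSAD2 moved from 1212 in vector to 30 in parental cells and ITGA6 from 485 to 2400. ITGB4 stood at rank 205 in vector and 430 in parental cells, and MDM2 at 1754 and 1114. Of the 15 most abundant genes of each baseline, 6 were shared, or 40.0% of each list, and 781 of the top 1000 were shared, or 78.1%. The vector cells were led by EEF1A1, an elongation factor, by the ferritin chains FTL and FTH1, and by AKR1B1, an aldose reductase. In parental cells the chemokine CXCL10 held rank 1, against rank 748 in vector cells, followed by S100A9, a calcium-binding alarmin, and ISG15, a ubiquitin-like antiviral protein. ISG15 stood at rank 191 in vector cells and IFIT3, an RNA-binding antiviral protein, at 155 against 8 in parental cells. In the other direction, FABP4, a fatty acid carrier that PPARG is known to induce, went from rank 7 in vector to 227 in parental cells, and THBS1, the matrix glycoprotein thrombospondin, from 10 to 237.

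**Figure D2:**
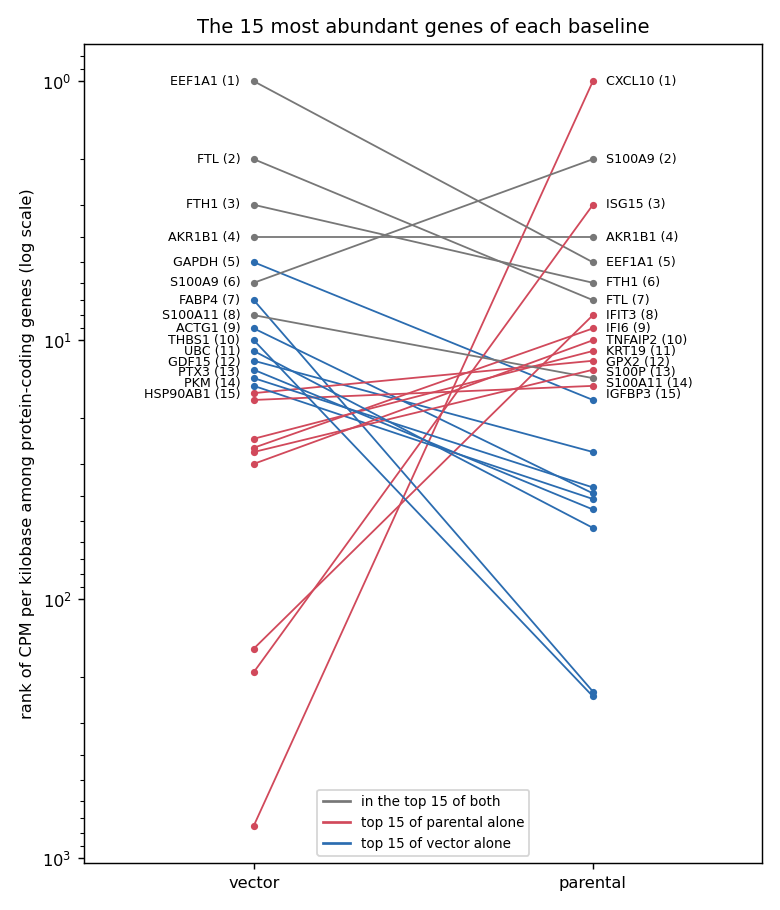
Rank of CPM per kilobase (log axis, rank 1 at the top, rank in brackets) of the 15 most abundant protein-coding genes of each baseline, with a line from the vector to the parental rank. CXCL10 climbs from 748 to 1 and ISG15 from 191 to 3, while FABP4 and THBS1 drop from 7 and 10 to 227 and 237.

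Interferon-stimulated genes were higher in parental cells almost throughout. All 36 interferon-stimulated genes listed were tested, 35 were higher in parental cells and none lower, and 28 were over 2-fold higher. Their median log2 difference was 1.73, against -0.02 for all genes. Summed over the list, the level was 12184, 12277 and 12288 CPM in the vector libraries and 48009, 47430 and 47673 CPM in the parental libraries, 3.89 times as high by the group means. The member that did not pass was IRF9, at 29.1 ± 1.43 CPM in vector and 31.4 ± 1.02 CPM in parental cells. Vector cells were not without this programme: OAS3, an enzyme that makes the activator of RNase L, stood there at 2054 ± 16.8 CPM and in parental cells at 3532 ± 8.18 CPM, and did not pass the 2-fold test.

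The promoters of 3 genes with large differences are shown because they hold the letters of the interferon-stimulated response element. They are the 250 bases before the RefSeq start site (GRCh38.p14), 5′ to 3′ on the gene's strand, with capitals for a match to TTTCNNTTTC or its reverse complement GAAANNGAAA, where N is any base.
RSAD2, chr2:6877527-6877776, plus strand: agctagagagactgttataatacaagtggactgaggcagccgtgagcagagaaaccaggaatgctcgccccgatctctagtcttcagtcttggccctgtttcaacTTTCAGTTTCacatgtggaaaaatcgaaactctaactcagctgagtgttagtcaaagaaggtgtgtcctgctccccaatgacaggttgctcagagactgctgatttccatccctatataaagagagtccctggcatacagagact
ISG15, chr1:1013247-1013496, plus strand: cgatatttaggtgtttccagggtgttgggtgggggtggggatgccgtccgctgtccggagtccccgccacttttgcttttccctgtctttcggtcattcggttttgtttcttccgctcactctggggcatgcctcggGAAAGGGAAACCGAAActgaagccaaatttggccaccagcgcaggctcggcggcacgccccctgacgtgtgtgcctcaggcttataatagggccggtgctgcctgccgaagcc
CXCL10, chr4:76023498-76023747, minus strand: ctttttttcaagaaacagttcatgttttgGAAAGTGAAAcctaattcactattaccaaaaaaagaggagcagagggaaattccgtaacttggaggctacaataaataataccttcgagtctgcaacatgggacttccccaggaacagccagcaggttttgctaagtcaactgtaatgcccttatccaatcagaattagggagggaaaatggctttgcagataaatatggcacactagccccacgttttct
The match begins 145 bases before the start in RSAD2 and 221 bases before it in CXCL10. RefSeq gives 2 start windows for RSAD2, and only the window with a match is shown. In ISG15, the farther of 2 overlapping matches begins 113 bases before the start. Among 35116 RefSeq windows of 250 bases before to 50 after a start, 3.57% held a match on either strand. Counted by gene, with a match in any window, it was 4.38% of 27305 genes. Of the interferon list, 29 of 36 genes had a window and 21 of the 29, or 72.4%, held a match. The list was made of genes known to respond to interferon, so this share is not an independent result. Of the tested genes over 2-fold higher in parental cells, 970 had a window and 10.0% held a match, against 3.63% of the 1268 with a window among those over 2-fold lower and 3.94% of all 11666 tested genes with a window. The genes over 2-fold higher include members of the interferon list. A match is a description of letters and not evidence of binding.

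The effectors with the largest differences included ISG20, an exonuclease that degrades viral RNA, at 7.84, 8.17 and 8.23 CPM in vector and 433, 422 and 440 CPM in parental libraries. The parental libraries were thus 53.4-fold higher, at 5.74 ± 0.03 on the log2 scale (edgeR adjusted p = 1.2e-26). IFIT2, an antiviral RNA-binding protein, read 88.7, 87.6 and 85.4 CPM in vector and 3070, 3085 and 3075 CPM in parental libraries, 35.3-fold higher (edgeR adjusted p = 2.0e-29). OASL, which enhances RIG-I signalling, was 27.6-fold higher, at 91.4 ± 2.70 against 2523 ± 28.2 CPM. ISG15 was 14.8-fold higher, from 121 ± 4.32 to 1799 ± 28.6 CPM. MX1, a GTPase that blocks virus replication, stood nearer, at 760 ± 13.3 CPM in vector and 2206 ± 11.1 CPM in parental cells. STAT2, a factor of the interferon response, was over 2-fold higher, from 248 ± 0.635 to 768 ± 5.73 CPM.

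Transcripts of interferons themselves were scarce in both baselines. Among 21 interferon genes, a set added after the data were seen, only IFNL1, a type III interferon, passed the filter on low counts. It had 24 counts over the vector libraries and 171 over the parental ones, at 0.361, 0.296 and 0.140 against 1.98, 1.55 and 1.5 CPM (log2 2.68 ± 0.33, edgeR adjusted p = 4.7e-07). IFNB1, the type I interferon made by most cell types, had 24 counts in vector and 18 in parental libraries. Of the 9 receptor and kinase genes added with them, IFNGR2, a chain of the interferon gamma receptor, was over 2-fold higher at 46.3 ± 5.16 against 12.8 ± 0.887 CPM, as was the kinase JAK2 at 81.2 ± 0.517 against 25.9 ± 0.647 CPM. IFNAR1, a chain of the type I receptor, stood at 119 CPM in each baseline.

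The sensors of foreign nucleic acid followed the same direction. Of 18 tested, 16 were higher in parental cells, 1 was lower and 8 were over 2-fold higher, with a median of 1.08. ZBP1, a sensor of Z-form nucleic acid, read 1.34, 1.55 and 1.52 CPM in vector and 53.6, 53.8 and 53.2 CPM in parental libraries, 36.3-fold higher (edgeR adjusted p = 4.4e-21). IFIH1, which encodes the RNA sensor MDA5, was 4.95-fold higher at 1148 ± 4.84 against 232 ± 2.83 CPM. TLR3, an endosomal receptor for double-stranded RNA, and the factor IRF1 were 2.72-fold and 3.17-fold higher. MAVS, the adaptor of the RNA sensors, was the member that was lower, at 162 ± 2.45 against 183 ± 5.44 CPM.

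Genes of antigen presentation were partly unreadable in these tables. Of 12 tested, 9 were higher in parental cells and 3 lower, with 5 over 2-fold higher and none over 2-fold lower and a median of 0.85. B2M, the invariant chain of class I molecules, read 1103, 1122 and 1101 CPM in vector and 3217, 3084 and 3176 CPM in parental libraries, 2.85-fold higher (edgeR adjusted p = 1.3e-22). NLRC5, which drives class I genes, was 4.33-fold higher at 145 ± 3.99 against 33.3 ± 1.45 CPM, and PSMB10, an immunoproteasome subunit, 4.31-fold higher at 40.0 ± 3.29 against 9.27 ± 0.701 CPM. TAP1, TAP2, PSMB8, PSMB9 and HLA-C stood under 1 CPM in all 6 libraries. These 5 genes lie on chromosome 6 between 28503296 and 33457548 (hg38), a span chosen after values in it were seen, where 24 of 181 protein-coding genes (13.3%) reached 1 CPM in vector cells and 13 (7.18%) in parental cells, against 525 (61.3%) and 519 (60.6%) of 857 on the rest of the chromosome. RPS18, a ribosomal protein gene within that span, stood at 0.720 ± 0.127 and 0.198 ± 0.0437 CPM, while the other 39 ribosomal protein genes listed stood at 11.3 CPM or more in both groups. The part of counting in these low values was not tested, and they are not read as expression. Without the 4 tested list members inside the span, 7 of 8 were higher, 1 lower and 3 over 2-fold higher, with a median of 0.85.

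Chemokine and NF-kB genes split in both directions, with 6 of 22 over 2-fold higher, 5 over 2-fold lower and a median of 0.19, which turned to -0.0033 with library size alone. The interferon-responsive chemokines were among the highest: CXCL10 read 58.6, 56.2 and 57.2 CPM in vector and 3436, 3346 and 3395 CPM in parental libraries, 59.2-fold higher (edgeR adjusted p = 2.0e-29). CXCL11, which binds the same receptor, was 125-fold higher at 1413 ± 17.7 against 11.3 ± 0.992 CPM. IDO1, an enzyme that breaks down tryptophan and that interferon gamma is known to induce, stood at 2.11 ± 0.339 CPM in vector and 385 ± 15.1 CPM in parental cells. CSF3, the granulocyte growth factor, had 3 counts in all over the vector libraries and 2664 over the parental ones, a ratio of 817 (exact 95% binomial interval 279 to 3964, counting error only). ICAM1, an adhesion molecule for leukocytes, was 12.5-fold higher at 12.9 ± 0.375 against 1.04 ± 0.202 CPM.

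Other cytokines pointed the other way. IL1A, an epithelial alarmin, was 2.21-fold lower in parental cells at 348 ± 8.35 against 768 ± 9.72 CPM, and LIF, a cytokine of the IL-6 family, 2.45-fold lower at 112 ± 4.25 against 273 ± 4.11 CPM. IL6 itself read 1.55, 1.65 and 2.22 CPM in vector and 0.0859, 0.0620 and 0 CPM in parental libraries. CXCL8, a neutrophil chemokine, did not pass the 2-fold test at 1094 ± 24.4 against 1349 ± 14.5 CPM.

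**Figure D3:**
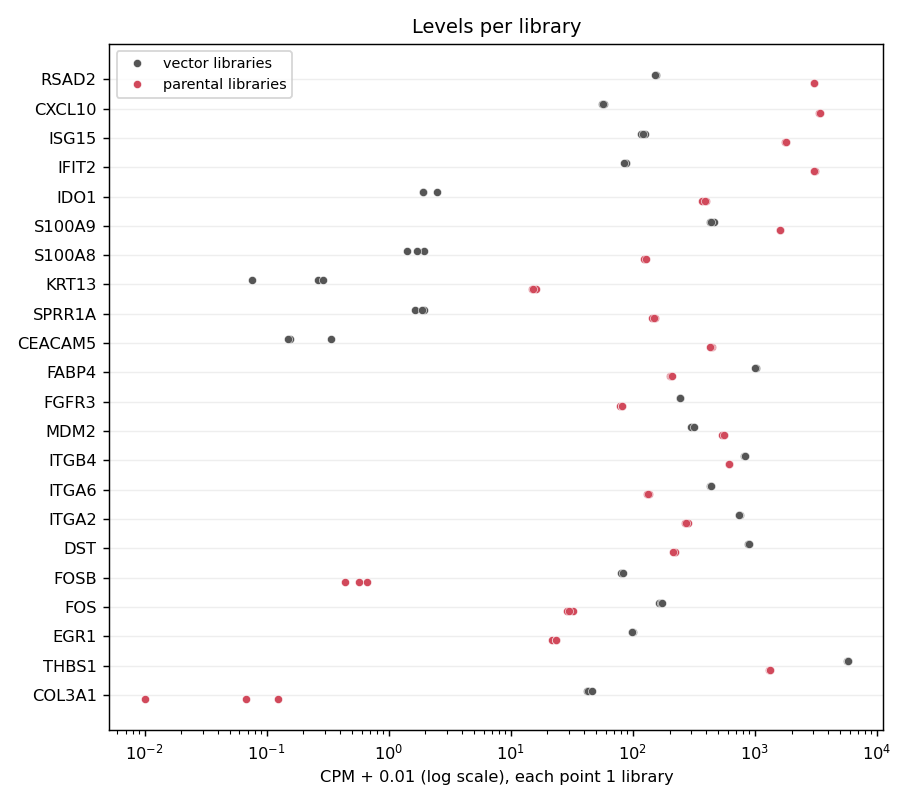
CPM + 0.01 on a log axis for 22 genes, each point 1 library, with vector libraries in grey and parental libraries in red. Libraries of a group lie close together at higher levels, as for RSAD2 at the top (151 to 156 against 3039 to 3060 CPM). Values near 0 spread apart on this axis, as for COL3A1 at the bottom in the parental libraries. The 22 were picked for display, some by a rule that asks for no overlap of the groups. Their separation is therefore not a result, and 78.4% of all genes tested differed at an adjusted p under 0.05 (edgeR).

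The basal and squamous list had the highest median of the lists with over 10 tested members, 3.90 on the log2 scale. Of its 23 tested genes, 20 were higher in parental cells and 2 lower, and 16 were over 2-fold higher. Most members over 2-fold higher are genes of the cornified layer and of squamous cells. SPRR1A, a cross-linked envelope protein, read 1.95, 1.65 and 1.88 CPM in vector and 153, 144 and 149 CPM in parental libraries, 81.3-fold higher (edgeR adjusted p = 7.7e-24). S100A8, the partner of S100A9 in calprotectin, read 1.95, 1.71 and 1.40 CPM against 127, 124 and 128 CPM, 75.6-fold higher (edgeR adjusted p = 2.4e-23). KRT13, a keratin of stratified and urothelial layers, was 74.3-fold higher at 15.3 ± 0.676 against 0.200 ± 0.117 CPM. LY6D, a surface protein of stratified epithelium, was 58.0-fold higher at 37.4 ± 1.02 against 0.639 ± 0.126 CPM, and the protease inhibitor PI3 stood at 402 ± 1.96 against 13.7 ± 0.853 CPM. SERPINB3 and SERPINB4, at 21.9 and 34.2 CPM in parental cells, are near-identical copies, as are the KRT6 genes, and their single values are uncertain.

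The keratins that define basal cells stood low in both baselines. KRT5 read 4.26, 4.12 and 3.29 CPM in vector and 0.115, 0.0310 and 0.548 CPM in parental libraries, and was over 2-fold lower in parental cells (log2 -4.02 ± 0.48, edgeR adjusted p = 2.3e-05). Its partner KRT14 had 2 counts in vector and 110 in parental libraries, a mean of 1.08 ± 0.266 CPM in the latter, and was over 2-fold higher. TP63, the master regulator of basal epithelium, stood at 270 ± 1.49 and 287 ± 4.51 CPM, a log2 difference of 0.09 ± 0.02. CD44, an adhesion receptor of basal cells, was lower in parental cells at 343 ± 7.90 against 635 ± 7.37 CPM without passing the 2-fold test.

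Of 24 luminal genes tested, 17 were higher in parental cells and 7 lower, 4 over 2-fold higher and 3 over 2-fold lower, with a median of 0.46. FOXA1 was 2.78-fold higher at 418 ± 5.98 against 150 ± 1.98 CPM, and KRT19 2.58-fold higher at 2587 ± 16.9 against 1004 ± 33.3 CPM. GATA3 was also higher, at 263 ± 4.63 against 148 ± 3.85 CPM, without passing the 2-fold test. PSCA, a surface antigen of urothelium, was 17.3-fold higher at 16.4 ± 1.34 against 0.964 ± 0.331 CPM. On the other side, FABP4 read 1029, 1020 and 1001 CPM in vector and 202, 206 and 209 CPM in parental libraries, 4.94-fold lower (edgeR adjusted p = 1.6e-24), and FGFR3 was 3.01-fold lower. PPARG itself was at 123 ± 2.64 in vector and 167 ± 4.36 CPM in parental cells. Luminal and squamous genes were read side by side in the same libraries, and whether the same cells carried both cannot be told from bulk RNA.

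Members of the carcinoembryonic antigen family, adhesion molecules of the epithelial surface, gave the 3 largest increases that the naming rule took. CEACAM5 read 0.144, 0.329 and 0.140 CPM in vector and 444, 434 and 426 CPM in parental libraries (log2 11.04 ± 0.07, edgeR adjusted p = 1.2e-26). CEACAM6 had 4 counts over the vector libraries and stood at 88.7 ± 3.98 CPM in parental cells. CEACAM7 was at 0 in the vector libraries and at 43.0, 42.7 and 40.2 CPM in the parental ones, at least 1309-fold higher against a floor of 3 counts over the group. In the family, a set added after the data were seen, CEACAM1 was 7.01-fold higher, at 775 ± 5.35 against 111 ± 2.60 CPM, and CEACAM19 stood at 9.59 ± 0.477 and 8.37 ± 0.730 CPM. These genes are close copies, so the split of reads among them is uncertain. FCGR3B, a low-affinity IgG receptor with a near-identical copy, had 2 counts in vector and 4195 in parental libraries, a ratio of 1929 (exact 95% binomial interval 534 to 15940, counting error only). The part of immune cell transcripts in this value was not tested.

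The remaining genes among the 10 largest increases were TNFAIP6, CXCL17, MUC5AC and PLAAT2. TNFAIP6, which binds hyaluronan in inflamed tissue, was 241-fold higher at 49.8 ± 1.23 against 0.199 ± 0.0923 CPM. CXCL17, a mucosal chemokine, was 186-fold higher at 114 ± 6.77 against 0.615 ± 0.168 CPM. MUC5AC, a gel-forming mucin, stood at 10.8 ± 0.976 CPM against 0.0779 ± 0.0589 CPM, from 7 counts in the vector libraries. PLAAT2, a phospholipid-modifying enzyme, was 130-fold higher at 28.2 ± 1.87 against 0.219 ± 0.0682 CPM.

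Genes of hemidesmosomes, integrins and laminins were mostly lower in parental cells. Of 22 tested, 18 were lower and 3 higher, 7 over 2-fold lower and 2 over 2-fold higher, with a median of -0.72. Differences on this list ran from -4.02 to 5.42 on the log2 scale. The lowest is that of the keratin KRT5, which is low in both baselines and also counted in the basal and squamous list. DST, which encodes the hemidesmosome plakin BP230 among other isoforms, read 895, 879 and 890 CPM in vector and 222, 222 and 215 CPM in parental libraries, 4.04-fold lower (edgeR adjusted p = 9.6e-24). LAMC1, the gamma chain of most laminins, was 3.42-fold lower at 125 ± 2.40 against 428 ± 4.39 CPM, and ITGA2, a collagen receptor chain, 2.72-fold lower at 274 ± 6.84 against 747 ± 10.7 CPM. Chains of laminin 332, the ligand of the ITGA6 and ITGB4 receptor, split: LAMA3 was over 2-fold lower at 99.8 ± 1.53 against 223 ± 0.686 CPM, and LAMB3 was higher at 838 ± 13 against 606 ± 7.06 CPM. CD151, a tetraspanin that binds ITGA6 complexes, was 2.27-fold higher at 74.6 ± 2.33 against 32.8 ± 2.00 CPM. ITGA3, the alpha chain of another laminin receptor, stood at 1526 ± 2.34 and 1524 ± 14 CPM.

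Most matrix genes listed went the same way. Of 11 collagen genes tested, a set added after the data were seen, 8 were lower in parental cells, 7 of them over 2-fold, and 2 were higher, with a median of -1.72. COL3A1, a fibrillar collagen counted in the mesenchymal list and not in this set, read 41.9, 42.9 and 45.9 CPM in vector and 0.115, 0 and 0.0577 CPM in parental libraries, and was the gene with the largest decrease that the naming rule took. COL4A4, a basement membrane chain, was 35.1-fold lower at 1.26 ± 0.0159 against 44.2 ± 0.564 CPM. The neighbouring chain gene COL4A3 stood at 0.400 ± 0.175 against 10.3 ± 0.980 CPM. THBS1 was 4.37-fold lower, at 1323 ± 7.51 against 5779 ± 62.0 CPM, and SNAI2, a factor of epithelial to mesenchymal transition, 6.41-fold lower at 17.5 ± 0.923 against 112 ± 1.56 CPM. Of the 12 mesenchymal genes tested, 8 were lower and 3 higher, with 5 over 2-fold lower and 2 over 2-fold higher. Over all genes tested, 13.6% were over 2-fold lower and 8.24% higher. Differences on this list ran from -9.44 for COL3A1 to 2.88 on the log2 scale, so it moved in both directions. VIM, the mesenchymal filament gene, was near 0 in every library.

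Epithelial junction genes moved in both directions, with 4 of 22 over 2-fold higher and 1 over 2-fold lower. TJP3, a tight junction scaffold, was 5.05-fold higher in parental cells at 71.1 ± 4.33 against 14.1 ± 0.494 CPM, while DSG2, a desmosomal cadherin, was 2.52-fold lower at 113 ± 1.71 against 286 ± 5.21 CPM. The list's median of 0.04 turned to -0.15 with library size alone and to -0.11 with upper quartile factors.

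**Figure D4:**
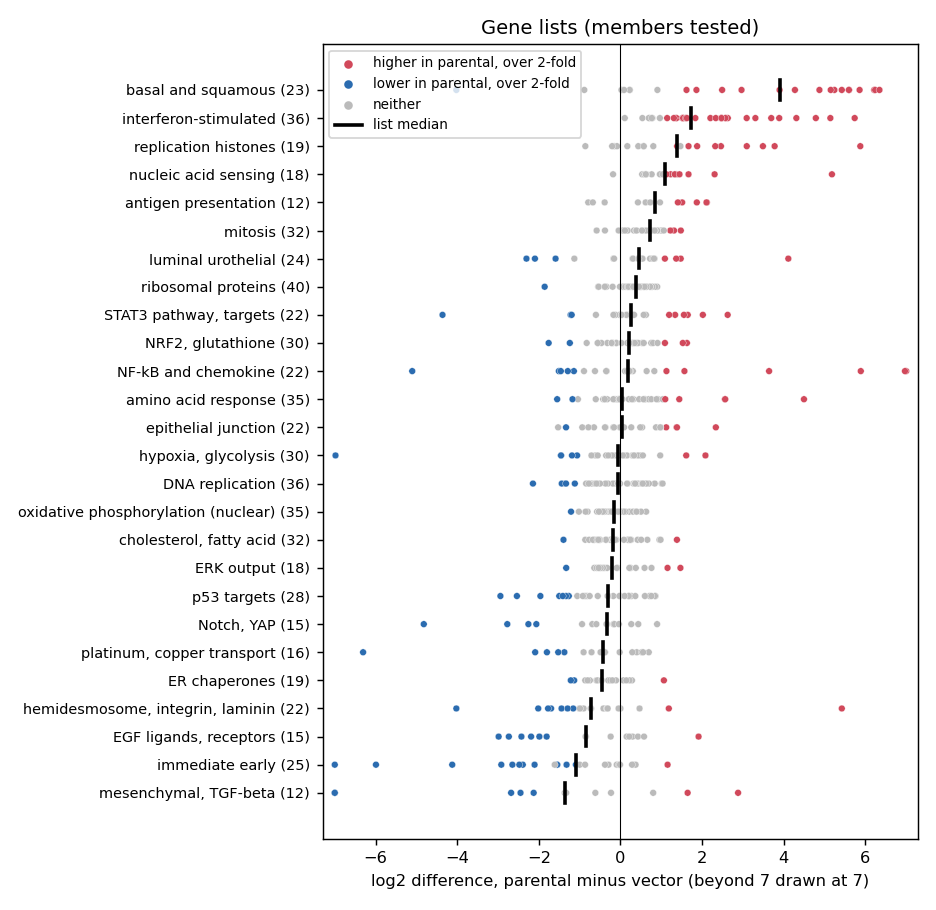
Log2 difference (parental minus vector) of every tested member of 26 gene lists, sorted by the list median (black bars), with the number tested in brackets, red for over 2-fold higher and blue for over 2-fold lower in parental cells. Medians run from 3.90 for basal and squamous genes to -1.35 for mesenchymal genes, with values beyond 7 drawn at 7.

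Immediate-early genes, which growth factors and stress switch on within minutes through the ERK and p38 kinases, were lower in parental cells in 18 of 25 tested and higher in 4. Of these, 12 were over 2-fold lower and 1 over 2-fold higher, with a median of -1.09. FOSB, a subunit of the AP-1 factor, read 82.1, 80.2 and 83.3 CPM in vector and 0.659, 0.558 and 0.433 CPM in parental libraries, 148-fold lower (edgeR adjusted p = 1.8e-22). FOS was 5.57-fold lower, at 30.4 ± 1.66 against 169 ± 5.58 CPM, and the zinc finger factor EGR1 4.30-fold lower, at 22.9 ± 0.945 against 98.7 ± 1.05 CPM. NR4A1, an orphan nuclear receptor, was 7.57-fold lower at 2.84 ± 0.288 against 21.4 ± 1.09 CPM. Other AP-1 subunits stood close: FOSL2 at 705 and 687 CPM and FOSL1 at 106 and 99.3 CPM in vector and parental cells. KLF4, a factor of epithelial differentiation, was the member over 2-fold higher, at 142 ± 2.29 against 63.9 ± 0.761 CPM.

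The EGF family differed by member. EGFR itself read 321, 322 and 321 CPM in vector and 92.6, 85.3 and 97.0 CPM in parental libraries, 3.50-fold lower (edgeR adjusted p = 7.7e-19). Its ligands AREG and EREG were 7.92-fold and 5.38-fold lower, at 2.36 ± 0.292 against 18.6 ± 0.946 CPM and 4.88 ± 0.0475 against 26.3 ± 0.813 CPM. BTC, another ligand, was 3.77-fold higher at 31.7 ± 0.586 against 8.41 ± 0.307 CPM, and ERBB2 and ERBB3 did not pass the 2-fold test. Over the 15 tested, 8 were lower and 5 higher in parental cells, 6 over 2-fold lower and 1 over 2-fold higher. The 18 ERK output genes had a median of -0.21, with SPRY4, a feedback inhibitor, and EMP1 over 2-fold higher and PHLDA1 over 2-fold lower.

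Notch genes over 2-fold were lower in parental cells. NOTCH1, the receptor, was 4.18-fold lower in parental cells at 41.4 ± 2.96 against 173 ± 0.667 CPM, its ligand JAG2 4.78-fold lower at 6.15 ± 0.526 against 29.4 ± 1.75 CPM, and its targets HEY1 and NRARP 28.2-fold and 6.84-fold lower. NOTCH3 went the other way, at 311 ± 2.79 against 167 ± 2.73 CPM, without passing the 2-fold test. The list of 15 Notch and YAP genes had 4 members over 2-fold lower and 0 over 2-fold higher, although 3 were higher at an adjusted p under 0.05.

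Among STAT3 pathway genes, SOCS3, the feedback inhibitor of IL-6 family receptors, was 6.17-fold higher in parental cells, at 75.3, 75.3 and 79.0 CPM against 12.4 CPM in each vector library (edgeR adjusted p = 8.3e-20). LIFR, the LIF receptor, was 4.05-fold higher at 162 ± 4.30 against 40.1 ± 0.840 CPM. LCN2, an iron-trapping acute-phase protein, was 2.53-fold higher at 1330 ± 29.7 against 526 ± 8.81 CPM. STAT3 stood at 409 ± 1.44 and 451 ± 1.52 CPM, a log2 difference of 0.14. Of 22 tested, 6 were over 2-fold higher and 3, not named here, over 2-fold lower, beside 8.24% and 13.6% of all genes tested. Differences on the list ran from -4.36 to 2.63 on the log2 scale. The median was 0.26, and it was 0.064 with library size alone, so the list as a whole moved little.

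The p53 targets over 2-fold were lower in parental cells, whereas MDM2 was higher. Of 28 tested, 16 were lower in parental cells and 9 higher, with 7 over 2-fold lower and 0 over 2-fold higher and a median of -0.31. PLK2, a kinase that stress induces, read 338, 339 and 337 CPM in vector and 60.5, 54.5 and 59.4 CPM in parental libraries, 5.81-fold lower (edgeR adjusted p = 2.2e-22). BTG2, an antiproliferative protein, was 2.83-fold lower at 154 ± 2.26 against 435 ± 6.24 CPM. CYFIP2, a part of the actin-regulating WAVE complex, was 7.68-fold lower at 11.7 ± 1.07 against 90.4 ± 0.849 CPM. CDKN1A, the gene of p21, a brake on cyclin-dependent kinases, stood at 305 ± 0.493 against 344 ± 2.95 CPM, and BAX, a pore-forming death protein, at 93.3 ± 0.732 against 93.0 ± 3.17 CPM.

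Mitosis genes were mostly higher in parental cells, while the DNA replication list stood near the shares of all genes, and the lists were not tested against each other. Of 32 mitosis genes, 27 were higher in parental cells and 2 lower, with 3 over 2-fold higher and a median of 0.72. Over all genes tested, 38.8% were higher and 8.24% were over 2-fold higher. The count over 2-fold is thus near the share of all genes, and the members named next are single genes. The spindle kinases AURKA and PLK1 were 2.78-fold and 2.33-fold higher, at 149 ± 2.91 against 53.4 ± 2.74 CPM and 98.8 ± 3.32 against 42.3 ± 1.60 CPM. Of 36 DNA replication genes, 15 were higher and 15 lower, with 5 over 2-fold lower and a median of -0.06. TYMS, thymidylate synthase, was 4.42-fold lower in parental cells at 6.05 ± 0.0719 against 26.8 ± 1.44 CPM, and MCM6, a helicase subunit, 2.52-fold lower at 17.7 ± 1.57 against 44.6 ± 0.360 CPM. MKI67, a general proliferation marker, stood at 299 ± 8.51 and 337 ± 8.43 CPM. Replication histones had 9 of 19 tested genes over 2-fold higher in parental cells, among them H2AC6 at 98.7 ± 2.78 against 18.0 ± 1.12 CPM. Most histone genes stood under 1 CPM, and as close copies their values are uncertain.

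In redox metabolism, SLC7A11, the cystine importer, read 1674, 1625 and 1668 CPM in vector and 490, 491 and 485 CPM in parental libraries, 3.39-fold lower (edgeR adjusted p = 1.3e-23). GCLC, which catalyses the first step of glutathione synthesis, was 2.36-fold lower at 751 ± 4.66 against 1776 ± 18.2 CPM. HMOX1, heme oxygenase, was 2.88-fold higher at 944 ± 16.8 against 328 ± 7.12 CPM, and GPX2, an epithelial glutathione peroxidase, 2.13-fold higher at 1650 ± 23.8 against 776 ± 14.3 CPM. NQO1, a common readout of the factor NRF2, stood at 825 ± 8.30 and 839 ± 10.7 CPM. The list of 30 NRF2 and glutathione genes had 3 over 2-fold higher, 2 over 2-fold lower and a median of 0.21. Over all genes tested, 8.24% were over 2-fold higher and 13.6% lower.

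Genes of the amino acid response had a median near that of all genes, 0.05 on the log2 scale, which turned to -0.15 with library size alone and -0.11 with upper quartile factors. Of 35 tested, 18 were higher in parental cells and 12 lower. On this list 5 were over 2-fold higher and 2 over 2-fold lower, beside 8.24% and 13.6% of all genes tested. The 5 included CHAC1, which degrades glutathione, at 284 ± 8.09 against 48.2 ± 0.867 CPM. NUPR1, a stress-induced nuclear protein, was another, at 74.5 ± 2.20 against 3.30 ± 0.364 CPM. WARS1, tryptophanyl-tRNA synthetase and also known as an interferon-induced gene, was 5.92-fold higher at 3371 ± 19.3 against 570 ± 3.14 CPM. Of 30 hypoxia and glycolysis genes, 13 were higher and 16 lower, with 2 over 2-fold higher, 5 over 2-fold lower and a median of -0.06. These counts are near the shares of all genes tested, 8.24% over 2-fold higher and 13.6% lower, so the members below are single genes and not a trait of the list. HK2, a hexokinase, and DDIT4, an inhibitor of mTORC1, were 3.05-fold and 4.23-fold higher. EGLN3, an oxygen sensor, PFKFB3, a regulator of glycolysis, ALDOC, an aldolase, and BNIP3L, a mitophagy receptor, were 2.74-fold, 2.28-fold, 2.75-fold and 2.09-fold lower. SLC2A3, a glucose transporter, was the fifth, with 45 counts in vector and 0 in parental libraries. GAPDH differed by -0.06 ± 0.02 and PKM by 0.06 ± 0.02 on the log2 scale. PKM turned to -0.13 with library size alone. Of 35 nuclear genes of oxidative phosphorylation, 1 was over 2-fold lower and 0 were over 2-fold higher, while 7 were higher and 21 lower at an adjusted p under 0.05. The 40 ribosomal protein genes had a median of 0.37, and 1, RPS18 of the span above, was over 2-fold lower.

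Transporters of platinum and copper bear on these cells because the series studies cisplatin. Of 16 tested, 10 were lower in parental cells and 3 higher, with 5 over 2-fold lower and a median of -0.44. ABCC4, an efflux pump, was 3.49-fold lower at 37.7 ± 1.27 against 131 ± 1.90 CPM, and ATP7B, a copper ATPase, 2.59-fold lower at 6.16 ± 0.717 against 16 ± 0.321 CPM. SLC31A1, the copper importer CTR1, stood at 106 ± 6.42 against 139 ± 2.21 CPM and did not pass the 2-fold test. MT2A, a metallothionein that binds zinc and copper, was 9.54-fold higher at 108 ± 2.13 against 11.4 ± 0.883 CPM, though metallothioneins are close copies.

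Several of the 10 largest decreases were genes with low or absent levels in parental cells. DOCK10, a guanine nucleotide exchange factor, read 34.5, 33.3 and 32.1 CPM in vector and 0.601, 0.465 and 0.115 CPM in parental libraries, 83.9-fold lower (edgeR adjusted p = 4.0e-16). GHR, the growth hormone receptor, was 69.4-fold lower at 0.236 ± 0.0592 against 16.6 ± 1.40 CPM. SRPX, KCTD12 and PAMR1 were 45.1-fold, 44.6-fold and 35.2-fold lower. QRICH1 stood at 2.35 ± 0.312 against 104 ± 2.14 CPM, 44.5-fold lower, and the part of counting in that value was not tested.

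The 2 tables differ in ways that touch single genes. Of the shared genes, 27837 to 28853 had a count in the shallower vector libraries and 23732 to 23909 in the deeper parental ones. At 0 in all parental libraries with a vector mean of at least 5 CPM were 54 genes, of which 47 are pseudogenes in GENCODE 29, while CEACAM7 was the sole gene of the opposite kind. For 26 of the 54, the parental table holds the same symbol with counts under another identifier. Of 253 transcribed unprocessed pseudogenes tested, 230 were over 2-fold lower and 2 over 2-fold higher in parental cells, against 1454 and 1177 of 13252 protein-coding genes. SOD2, a mitochondrial superoxide dismutase, stands in the parental table under another identifier with 221182 counts over its 3 libraries, so it was not compared. Without the genes at 0 in a group, 1427 were over 2-fold higher and 2143 lower, close to the counts over all genes.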

How the data were processed

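The authors deposited raw counts per gene in 2 tables, 1 per experiment. Per the file headers, the vector table holds read pairs counted over exons with featureCounts 2.0.1 against Ensembl 107, with no strand option, from alignments named hisat, so antisense and overlapping genes cannot be told apart there. For the parental table no source used here names the counter, annotation or strand setting. Positions refer to hg38, the build in the submitters' processing notes.

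The 3 ITGB4-NC columns and the 3 NC columns were joined on gene identifiers, and 6 columns of treated samples were not used. Genes in 1 table alone held 0.136% of the vector and 0.30% of the parental counts. Symbols came from a gene name table (61720 of 61720 identifiers), positions and classes from GENCODE 29 (58170) and promoters from RefSeq. Genes passing filterByExpr (17479) were tested with edgeR 4.0.16 in R 4.3.3 (TMM factors, quasi-likelihood test, glmTreat at 2-fold), with Benjamini-Hochberg adjustment over all of them. A standard error is the log2 difference divided by the square root of F. Lists (32, with 770 of 771 symbols matched) are described by counts and medians without a test, and no median moved when genes at 0 in a group were set at a floor of 3 counts. Levels of different genes were ranked per kilobase.

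The members and lists were chosen with earlier results of these data known. Named genes are the 4 markers, the 10 largest increases and 10 largest decreases among protein-coding genes over 2-fold with at least 10 CPM and no overlap of the groups (without histones, pseudogenes, antisense and unnamed loci), up to 4 members per list over 2-fold with at least 5 CPM or the 2 most abundant, genes altered in RT4, and the 15 most abundant genes per baseline. Further list members are named to show where a list split, and were chosen after their values were seen. Not every gene that the rule takes is printed. The scripts were tested on simulated data. Alternatives were other scalings, filters, tools (DESeq2 1.42.0, limma-voom from limma 3.58.1), fold thresholds, gene sets, a replicate block and leaving out each library.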

Additional observations from a re-analysis of the deposited data

Results flagged for a closer look

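Data outside the comparison carried signal. The mitochondrial genes held 1.64% of the counts of the parental libraries and were listed at 0 in the vector table, so no mitochondrial transcript was compared. Genes listed in the parental table alone held 0.30% of its counts, and those listed in the vector table alone held 0.136%. No test for an outlying library was made, since each group has 3 libraries.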

How the results depend on the processing

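The count of genes differing at an adjusted p under 0.05 was 13703 and stayed within 1.5 times under 16 of 17 alternatives, leaving out each library included (13017 to 13979). It was 7207 over the 9065 genes with no exonic overlap, a set added after the data were seen that holds fewer genes. The 3815 genes over 2-fold became 6965 at a threshold of 1.5, 1199 at a threshold of 4 and 2240 over genes with no exonic overlap, and leaving out each library gave 3530 to 3988. Of 32 lists, 16 had a median above 0, and 16, 13 and 14 did with RLE factors, library size alone and upper quartile factors. With library size alone, the medians of the NF-kB and chemokine (-0.0033), junction (-0.15), amino acid (-0.15) and interferon receptor (-0.094) lists turned below 0, as did the last 3 with upper quartile factors (-0.11, -0.11 and -0.058). The rank correlation of 0.913 became 0.907 over genes with at least 1 CPM in every library, 0.927 over protein-coding genes and 0.930 without length scaling.

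For 148 named genes, 2428 of 2459 values kept their direction and side of the threshold, 20 lost the call, 1 gained it and 10 changed sign. The changes of sign were HSP90AB1 (-0.15, -0.11 and -0.015), PKM (-0.13, -0.10 and -0.0018) with library size alone, upper quartile factors and protein-coding genes only, and RPL4 (-0.13 and -0.089) and ITGAM (-0.098 and -0.062, not called in either fit or as reported) with the first 2 of these. Fitted with a replicate block by the number in the column headings, 13443 genes differed and 3705 were over 2-fold. Same-numbered libraries did not deviate together (correlations of -0.022, 0.022 and -0.0064), so the numbers were not taken as pairs. The causes of these shifts were not tested.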

Other observations

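Endoplasmic reticulum chaperone and quality control genes were mostly lower in parental cells by edgeR's quasi-likelihood test. Of 19 tested, 14 were lower and 4 higher, with a median of -0.46 on the log2 scale. Only 2 were over 2-fold lower and 1 over 2-fold higher, beside 13.6% and 8.24% of all genes tested. CALR, the lectin chaperone calreticulin, was 2.20-fold lower at 470 ± 7.97 against 1032 ± 0.943 CPM, and SEL1L, an adaptor of protein degradation at that membrane, was 2.33-fold lower at 122 ± 3.36 against 283 ± 2.47 CPM. XBP1, a factor of the unfolded protein response, was 2.09-fold higher at 564 ± 19 against 270 ± 1.72 CPM. Of 16 long noncoding RNAs tested, 5 were over 2-fold higher and 1 over 2-fold lower in parental cells. Those that host small nucleolar RNAs were among the higher ones, with GAS5 at 231 ± 8.03 against 70.2 ± 0.610 CPM and SNHG1 at 146 ± 3.97 against 53.2 ± 1.75 CPM. Of 32 cholesterol and fatty acid genes, 1 was over 2-fold higher, STARD4, a sterol carrier, at 153 ± 0.425 against 58.7 ± 1.46 CPM, and 1 was over 2-fold lower, FADS2, a desaturase, at 2.75 ± 0.626 against 7.25 ± 0.0865 CPM.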
